A study of Mus musculus with 6 samples.

Results

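Hedgehog and bone morphogenetic protein (BMP) signalling genes were followed here across the duodenum of control mice and of mice with an intestinal mutation of the transcription factor Nkx2.2. The set was chosen by gene name, with earlier results of these data known. It holds 39 genes, 16 of the Hedgehog pathway and 23 of the BMP pathway, out of 23235 gene symbols in 23699 rows, and each of the 39 had 1 row. A total of 38 passed a filter of a mean of at least 0.1 FPKM (fragments counted on a gene, scaled to its transcript length and to the size of the library), and Bmpr1b did not.

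RNA was sequenced from the first part of the intestine after the stomach of mice aged 6 weeks on a mixed background, in 3 control and 3 mutant libraries. Control 1 and control 2 were Nkx2.2flox/+ with Rosa26Tomato/+, and control 3 was Nkx2.2flox/+ without the Tomato reporter. Mutants were Nkx2.2flox/TN with Villin-Cre/+ and Rosa26Tomato/+. Villin-Cre is a recombinase active in intestinal epithelium, all 6 libraries came from animals with a floxed Nkx2.2 allele, and no control carried Cre. TN denotes a mutant allele of Nkx2.2, a factor known for its role in hormone-producing gut cells, and the comparison addresses which duodenal transcripts differ when the intestinal epithelium keeps only that allele. The TN allele is present in every tissue of the mutants, so effects of Cre, of Nkx2.2 dose in the epithelium and of TN outside it cannot be told apart. The labels do not state that each library is a separate animal, so p-values measure the spread between these libraries. Values of single libraries are given in the order of their numbers, 1 to 3.

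In the gut, Hedgehog ligands are made by the epithelium and act on the mesenchyme beneath it. Ligand binding to the receptor Patched releases Smoothened, and Gli transcription factors then switch on targets in mesenchymal cells. BMP ligands from mesenchyme and epithelium bind paired receptors that phosphorylate Smad proteins, which raise Id genes, and secreted antagonists near the crypt base hold this signal back. Both pathways are known for patterning villi and crypts.

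The libraries held 14210000 to 25910000 implied reads, a depth worked out from the deposited FPKM intervals. Nkx2-2 itself measured 1 to 1.27 FPKM in controls and 0.666 to 0.748 FPKM in mutants, without overlap. Epithelial markers (10 genes, none at 0) summed to 5075 to 5651 FPKM in controls and 5356 to 5652 FPKM in mutants. Smooth muscle markers (10 of 10 found) summed to 738 to 1002 FPKM in controls and 557 to 717 FPKM in mutants, and all 10 had lower means in mutants, with the smallest p in Myh11 (log2 -0.52) and Synpo2 (log2 -0.48). Control 3 and mutant 3 stood apart: their Y-linked transcripts summed to 0.0569 and 0.127 FPKM, against 61.2 to 65.5 FPKM in the others, so they are called female, and they had the highest sums of 13 pancreatic acinar genes, 13709 and 14946 FPKM, against 32.1 and 525 FPKM in the other controls and 3237 and 3537 FPKM in the other mutants. Sex and pancreatic RNA therefore cannot be told apart in those 2 libraries. The acinar sum was also higher in the mutant of each same-numbered pair, with higher means for all 13 genes, so the 4 male libraries differ in it by genotype too. In the whole wall, fewer cells of a type and less RNA per cell cannot be told apart either.

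None of the 38 tested genes differed between mutant and control after adjustment over all genes. In limma with Benjamini-Hochberg adjustment, 0 of 15864 rows were called at an adjusted p of 0.05 (0%), and the smallest adjusted p among the Hedgehog and BMP genes was 0.786. The unadjusted p was under 0.05 for 922 rows (5.81%), 685 lower in mutants (4.32%) and 237 higher (1.49%). That count was 467 lower and 436 higher after trimmed mean scaling of the libraries, so the lower share was 74.3% before and 51.7% after scaling. Of the 38 genes, 2 had an unadjusted p under 0.05, Boc and Id4, both lower in mutants (5.26%), which is near the background share. With the replicate number as a block, which pairs the libraries here, neither passed in limma (unadjusted p = 0.0604 for Boc and 0.0564 for Id4, adjusted p = 0.606 for both).

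The direction was mostly downward. A negative log2 fold change of mutant minus control was found for 31 of the 38 genes, beside 61.3% of all rows tested. Their median was -0.14, against -0.05 for all rows. The median was -0.14 for the Hedgehog genes and -0.15 for the BMP genes. In 21 of the 38 the sign stayed negative in every one of the 17 alternative settings that gave a value, and 3 (Dhh, Bmp7 and Id3) stayed positive. The filters, the fit without trend, the replicate block and the sex covariate leave the log2 fold change unchanged, so they cannot alter a sign. In 6 genes every mutant lay below every control, namely Smo, Cdon, Boc, Hhip, Bmpr1a and Id4, and in none did every mutant lie above. The 6 are 15.8% of the genes, beside 9.92% of all rows below and 3.13% above. Trimmed mean scaling left 3 of them separated (Smo, Cdon and Hhip, with 6.98% of all rows) and quantile normalization left 1 (Hhip, with 6.52%). In the 4 libraries with Y-linked transcripts, the unadjusted p was under 0.05 for Boc and Bmp2, both lower, beside 2.33% of all rows lower. The median of the set there was -0.12, beside -0.056 for all rows. With 2 libraries a group, 15 genes had every mutant below every control (39.5%, beside 24.7% of all rows), all 6 named above among them.

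Most of the genes were measured well enough to bound the difference. For all 38, the 95% interval of the log2 fold change on FPKM + 0.1 lay within a 2-fold change in either direction. The share over all rows was 85.4%. The added 0.1 shrinks the change of the lowest genes, such as Dhh, whose upper limit was 0.9965. For 19 of the 38 the interval lay within a 1.5-fold change (50%, beside 63.2% of all rows). A p above the threshold does not show that the groups were equal.

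**Figure D1:**
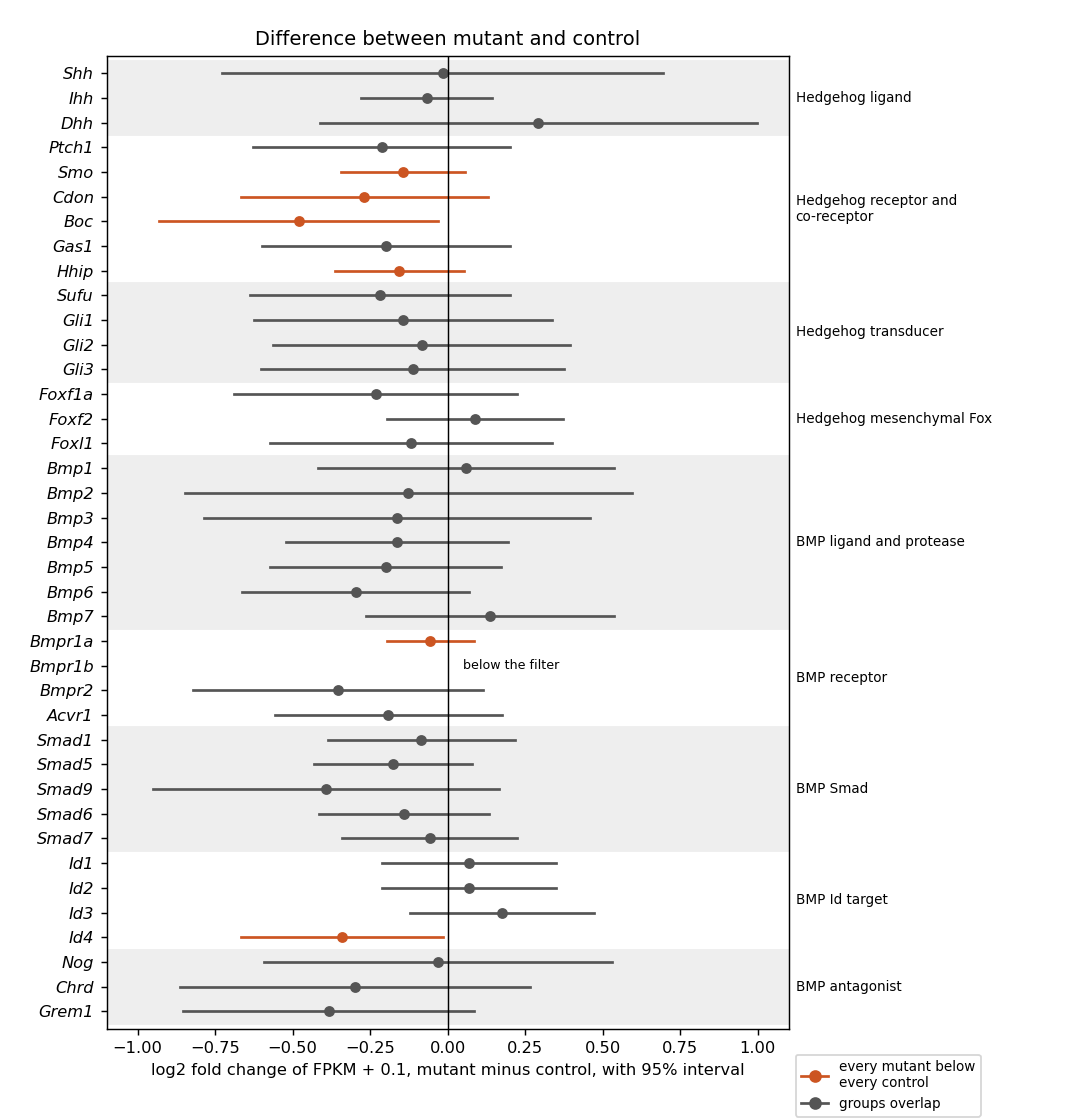
Log2 fold change of each gene (mutant minus control, on FPKM + 0.1) as a point with its 95% interval from limma, grouped by role. The 6 genes where every mutant lay below every control are coloured, and only the intervals of Boc and Id4 leave out 0.

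Indian hedgehog (Ihh) was the Hedgehog ligand of this tissue, and its level did not separate the groups. Ihh (mm9 chromosome 1, 74991892 to 74998225, minus strand, protein coding) measured 27.9, 27.2 and 23.7 FPKM in the controls and 25.5, 23.3 and 26.1 FPKM in the mutants. Mutant 2 was the lowest library and control 1 the highest, and the groups overlapped. The means were 26.2 ± 2.27 and 25 ± 1.47 FPKM (SD, n = 3 each), with a log2 fold change of -0.07 (95% interval -0.28 to 0.14, adjusted p = 0.88 in limma).

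Sonic hedgehog (Shh) and desert hedgehog (Dhh) were barely detected. Shh, the ligand of the crypt base and of gut development, measured 0.0866, 0.116 and 0.205 FPKM in the controls and 0.0972, 0.142 and 0.149 FPKM in the mutants. These values rest on 3 to 10 implied reads a library. Dhh, a ligand of Schwann cells and gonads, rested on 3 to 9 reads and ranged from 0.0701 to 0.164 FPKM in controls and 0.127 to 0.221 FPKM in mutants. Ihh made up 98.7% to 99.1% of the summed FPKM of the 3 ligands in each library. At this depth no difference in Shh or Dhh was detectable, with log2 intervals of -0.73 to 0.7 and -0.41 to 1. For Dhh the FPKM gave a log2 fold change of 0.29 and the authors' deposited table -0.02.

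The 6 receptors, co-receptors and surface binders of Hedgehog all had lower means in the mutants. All 6 kept a negative log2 fold change in the 17 alternative settings tried, several of which cannot alter it, and none passed adjustment. Their summed level was 23.7, 23.5 and 21.7 FPKM in the controls and 20.6, 20.7 and 18.4 FPKM in the mutants. Each mutant sum was below each control sum, on FPKM that were not scaled further. Among single genes, Boc lost its separation under trimmed mean scaling, and Smo, Cdon and Boc lost it under quantile normalization. Over all rows tested, 61.3% had a negative log2 fold change and 9.92% had every mutant below every control. Smooth muscle marker sums were also lower in each mutant than in each control, and the part of muscle content in these values was not tested.

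Boc, a co-receptor that binds Hedgehog ligands beside Patched, showed the largest difference of the 6. Boc (chromosome 16, 44485158 to 44558983, minus strand) measured 1.75, 1.23 and 1.34 FPKM in the controls and 0.863, 0.965 and 1.17 FPKM in the mutants. The groups did not overlap, and control 1 stood above the other libraries. The log2 fold change was -0.48 (SE 0.19, unadjusted p = 0.0393, adjusted p = 0.786 in limma). Without control 1 it was -0.34 with an unadjusted p of 0.122, and in the 4 male libraries -0.63 with 0.049.

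Smo, the Smoothened transducer, measured 5.1, 4.89 and 4.85 FPKM in the controls and 4.42, 4.45 and 4.52 FPKM in the mutants. Its libraries were close within each group, with means of 4.95 ± 0.139 and 4.46 ± 0.0542 FPKM (SD, n = 3 each). The log2 fold change of Smo was -0.14 (95% interval -0.34 to 0.05, adjusted p = 0.786 in limma). Cdon, a co-receptor related to Boc, measured 1.36, 1.7 and 1.18 FPKM in the controls and 1.17, 1.18 and 1.09 FPKM in the mutants. Control 3 and mutant 2 nearly touched, so the separation of Cdon was narrow.

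Patched 1 (Ptch1) is both the receptor and a target of the pathway. Ptch1 measured 7.8, 7.57 and 5.87 FPKM in the controls and 6.38, 7.14 and 4.86 FPKM in the mutants. Number 3 was the lowest library in both groups, and the groups overlapped. Its log2 fold change was -0.21 (95% interval -0.63 to 0.2, adjusted p = 0.808 in limma). With a sex covariate Ptch1 had an unadjusted p of 0.0463 (adjusted p = 0.623), but with the pancreatic covariate its log2 fold change was -0.02 (unadjusted p = 0.907). With 1 library left out it ran from -0.34 without control 3 to -0.06 without mutant 3. Gas1, a membrane co-receptor, ranged from 2.72 to 3.26 FPKM in controls and 2.32 to 3.33 FPKM in mutants.

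Hhip, a surface protein that binds Hedgehog ligands and is itself a target, was the gene whose separation held under both scalings. Hhip (chromosome 8, 82489750 to 82581907, minus strand) measured 5, 4.87 and 5.31 FPKM in the controls and 4.47, 4.67 and 4.44 FPKM in the mutants. The group means were 5.06 ± 0.225 and 4.53 ± 0.126 FPKM (SD, n = 3 each). The difference was small, with a log2 fold change of -0.16 (95% interval -0.36 to 0.05, adjusted p = 0.786 in limma).

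The Gli factors were low and did not separate. Gli1, the transcription factor whose own level follows pathway activity, measured 1.32, 1.34 and 1.43 FPKM in the controls and 1.07, 1.66 and 1.02 FPKM in the mutants. Mutant 2 was the highest of the 6 libraries, and the other mutants were the lowest. The log2 fold change of Gli1 was -0.14, and it was -0.35 without mutant 2, -0.06 without mutant 1 and -0.03 without mutant 3. The locus of Gli1 overlaps that of Arhgap9 (7.14 FPKM on average), and whether counting used strand is not given, so its level is uncertain. Gli2 and Gli3, the main activator and repressor forms, ranged from 0.345 to 0.473 and from 0.254 to 0.34 FPKM. Sufu, the inhibitor that holds Gli proteins in the cytoplasm, ranged from 2.8 to 4 FPKM in controls and 2.33 to 3.09 FPKM in mutants.

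The Fox factors of gut mesenchyme are known Hedgehog targets, and none of the 3 separated the groups. Foxf1a measured 6.58, 9.83 and 7.75 FPKM in the controls and 7.85, 7.28 and 5.38 FPKM in the mutants. Foxl1, a marker of subepithelial telocytes, measured 1.14, 1.62 and 1.49 FPKM in the controls and 1.5, 1.31 and 1.07 FPKM in the mutants. In both genes the groups overlapped and mutant 3 was the lowest library. Foxf2 was the one with the higher mean in mutants, at 6.7 ± 0.876 and 7.1 ± 0.513 FPKM (SD, n = 3 each), and its log2 fold change was 0.09.

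Epithelial ligand and mesenchymal target levels were set side by side. The ligands summed to 23.9 to 28.1 FPKM in controls and 23.6 to 26.4 FPKM in mutants. Ptch1, Gli1, Hhip, Foxf1a, Foxf2 and Foxl1 together summed to 28.6, 32.8 and 27.7 FPKM in the controls and 28.9, 29.2 and 23.3 FPKM in the mutants. The sums overlapped between the groups for ligands and for targets. Target level as a percent of ligand level was 112 ± 9.28 in the control and 108 ± 17.8 in the mutant libraries (SD, n = 3 each). Against the smooth muscle sum, targets stood at 3.87, 3.76 and 2.76% in the controls and 4.46, 5.23 and 3.26% in the mutants, higher in the mutant of all 3 same-numbered pairs. Against the subepithelial mesenchyme sum they stood at 14, 15.5 and 16% in the controls and 13.7, 14.2 and 12.4% in the mutants, lower in the mutant of all 3 pairs. Against the fibroblast and matrix sum they stood at 6.36, 7.55 and 6.81% in the controls and 6.61, 6.45 and 6.57% in the mutants, lower in 2 of 3 pairs. The direction of the target level thus differed with the marker list it was set against. Of the subepithelial mesenchyme sum, Cd81 alone averaged 119 of 196 FPKM in controls and 126 of 201 FPKM in mutants. The ratio to that sum therefore rests largely on 1 gene. Ligands stood at 0.49 ± 0.0201% of the epithelial sum in the control and 0.457 ± 0.037% in the mutant libraries (SD, n = 3 each). None of these ratios was tested.

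**Figure D2:**
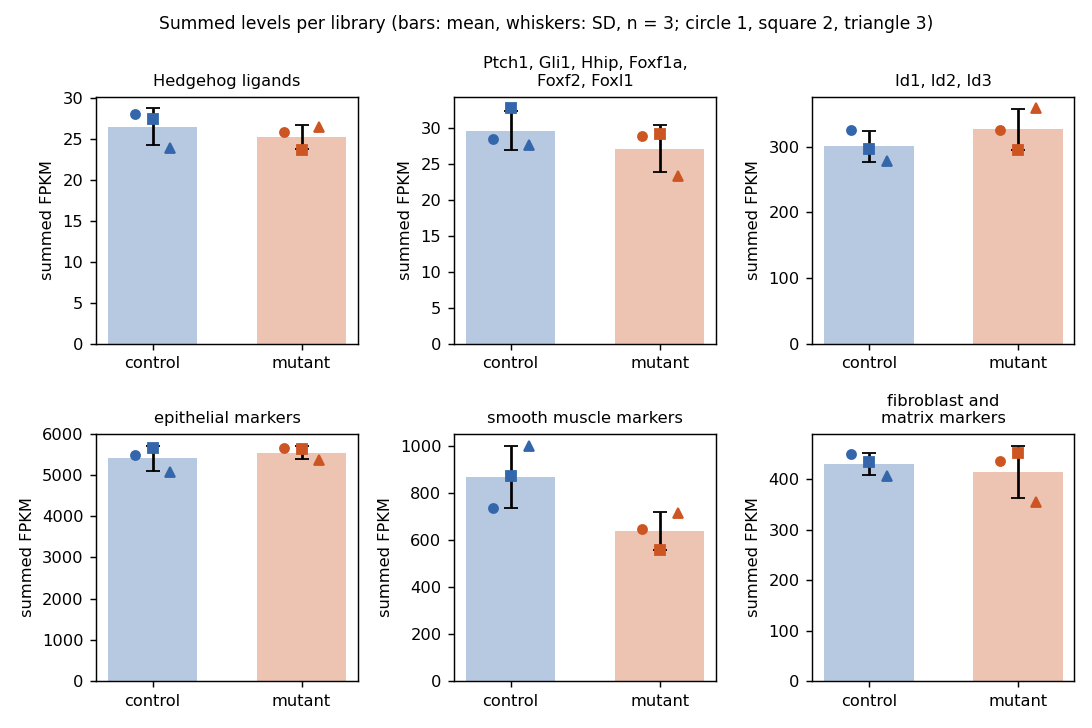
Summed FPKM in each library of the Hedgehog ligands, 6 mesenchymal Hedgehog targets, Id1 to Id3 and 3 marker lists; bars are means, whiskers SD (n = 3 each) and symbols the libraries. Smooth muscle markers sit at 738 to 1002 FPKM in controls and 557 to 717 FPKM in mutants, while ligand and target sums overlap.

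Among BMP ligands, Bmp2, Bmp4 and Bmp5 were the most abundant, and none separated the groups. Bmp2, made by villus epithelium and other cells, measured 22, 20.6 and 9.91 FPKM in the controls and 17.1, 15.9 and 12.6 FPKM in the mutants. Control 3 was the lowest of all and mutant 3 the lowest mutant. All 3 mutants lay between control 3 and control 2. Over the 6 libraries the log2 fold change of Bmp2 was -0.13 (95% interval -0.85 to 0.59, adjusted p = 0.949 in limma). Without control 3 it was -0.49 (unadjusted p = 0.013, adjusted p = 0.762), in the 4 male libraries -0.37 (unadjusted p = 0.0103), and with a pancreatic covariate 0.33. Without control 1 or control 2 it was 0.08 or 0.03. Sex and the pancreatic sum move with control 3 and mutant 3, and their part in Bmp2 was not tested beyond these fits.

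Bmp3, a member that antagonizes other BMPs, ran the other way in the same libraries. Bmp3 measured 2.89, 3.2 and 5.54 FPKM in the controls and 2.71, 3.38 and 3.93 FPKM in the mutants. Number 3 was the highest library in both groups. Its log2 fold change was -0.16, and 0.12 without control 3. With the pancreatic covariate it was -0.54 (unadjusted p = 0.0198, adjusted p = 0.832 in limma). Across the 39 genes, number 3 was the lowest library in both groups for 10 and the highest in both for 4 (25.6% and 10.3%, beside 24.3% and 11.8% of all rows tested).

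Bmp4, the mesenchymal ligand that Hedgehog signalling is known to maintain, measured 12.9, 10.4 and 9.67 FPKM in the controls and 9.57, 11.4 and 8.43 FPKM in the mutants. Bmp5, a second mesenchymal ligand, measured 9.76, 10.9 and 7.72 FPKM in the controls and 7.24, 9.52 and 7.81 FPKM in the mutants. In both the groups overlapped, and the log2 fold changes were -0.16 and -0.20. Leaving out 1 library moved Bmp4 to -0.28 (without mutant 2), -0.25 (without control 3), -0.06 (without mutant 3) or -0.04 (without control 1). For Bmp5 it gave -0.34 without control 3, -0.31 without mutant 2, -0.12 without mutant 1 and -0.09 without control 2. Bmp6 ranged from 1.53 to 2 FPKM in controls and 1.28 to 1.57 FPKM in mutants, with a log2 fold change of -0.3 (unadjusted p = 0.0968). Bmp7 ranged from 2.59 to 4 FPKM over the 6 libraries, and Bmp1, a protease that cleaves matrix proteins and chordin, from 8.85 to 14.2 FPKM.

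BMP receptor transcripts came chiefly from Bmpr1a, which was also the steadiest gene of the set. Bmpr1a, the main type I receptor of the gut, measured 31.5, 32.3 and 31.5 FPKM in the controls and 30, 30.8 and 30.8 FPKM in the mutants. Its spread over the 6 libraries was 2.49% of the mean, beside 1.78% expected from counting. Every mutant lay below every control, yet the log2 fold change was only -0.06 (95% interval -0.2 to 0.08, adjusted p = 0.845 in limma), and 0.0023 in the authors' deposited table. The separation was lost under both scalings. Bmpr2, the type II receptor, ranged from 4.66 to 6.82 FPKM in controls and 3.52 to 5.42 FPKM in mutants. Its log2 fold change was -0.35 (unadjusted p = 0.117, adjusted p = 0.786 in limma). Left-out libraries moved it from -0.51 without mutant 2 (unadjusted p = 0.0386, adjusted p = 0.657) to -0.21 without control 1 and -0.20 without mutant 3. Acvr1, another type I receptor, ranged from 5.52 to 8.53 FPKM, and Bmpr1b rested on 4 to 11 reads at 0.0529 to 0.116 FPKM.

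The Smad genes all had negative log2 fold changes. Smad1, a receptor-activated Smad, ranged from 20.3 to 24.9 FPKM in controls and 19.2 to 24.8 FPKM in mutants. Smad5, its close relative, ranged from 6.77 to 7.37 FPKM in controls and 5.79 to 7.17 FPKM in mutants. Smad9, the third of that class, had the largest log2 fold change of the 5 at -0.39 (95% interval -0.95 to 0.17), with mutant 1 lowest at 0.602 FPKM, and without mutant 1 it was -0.18. The inhibitory Smad6 and Smad7, which are themselves induced by BMP signals, had log2 fold changes of -0.14 and -0.06. Smad7 turned to 0.04 with the pancreatic covariate.

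The Id genes are direct BMP targets, and Id1, Id2 and Id3 were the most abundant genes of the set, with groups that overlapped. Id1 measured 124, 110 and 100 FPKM in the controls and 124, 101 and 126 FPKM in the mutants. Id3 measured 152, 134 and 118 FPKM in the controls and 153, 135 and 170 FPKM in the mutants. Number 1 and number 2 were near equal between the groups in Id3, and the higher mutant mean came from mutant 3 against control 3. The log2 fold changes were 0.07 for Id1 and 0.18 for Id3 (95% interval -0.12 to 0.47, adjusted p = 0.802 in limma). Id2, which lymphoid cells also express, measured 50.1, 52.5 and 60.1 FPKM in the controls and 48.7, 59.9 and 62.4 FPKM in the mutants. T cell markers summed to 419 to 522 FPKM in controls and 521 to 673 FPKM in mutants (8 of 9 with higher means). Of the mean sums of 455 and 592 FPKM, Ccl5 held 157 and 231 FPKM and Gzma 196 and 235 FPKM. The part of T cells in the Id values was not tested.

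Id4 had a lower mean in mutants, where its 3 relatives had higher ones, and that contrast was not tested. Id4 (chromosome 13, 48356796 to 48359405, plus strand) measured 5.77, 6.04 and 6.47 FPKM in the controls and 5.64, 4.84 and 4.01 FPKM in the mutants. The groups did not overlap, by a small margin between control 1 and mutant 1. The log2 fold change was -0.34 (SE 0.14, unadjusted p = 0.0422, adjusted p = 0.786 in limma). It ran from -0.46 without mutant 1 to -0.22 without mutant 3 (unadjusted p = 0.119), and in the 4 male libraries it was -0.17 with an unadjusted p of 0.244. Enteric neuron and glia markers summed to 18.1 to 20.2 FPKM in controls and 14.9 to 17 FPKM in mutants (10 of 10 found, 9 with lower means), and their part in the value of Id4 was not tested.

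Promoters of 3 BMP-responsive genes are shown because Id4 and its relative Id2 had log2 fold changes of opposite sign and Smad6 holds the palindromic Smad motif. The windows run from 250 bases before to 50 after the gene start, 5′ to 3′ on the gene's strand (RefSeq, GRCm38.p6, a later build than the mm9 of the expression files). Capitals mark the motif GGCGCC in Id2 (chr12:25096043-25096342, minus strand) and Id4 (chr13:48260866-48261165, plus strand) and GTCTAGAC in Smad6 (chr9:64022010-64022309, minus strand).
Id2: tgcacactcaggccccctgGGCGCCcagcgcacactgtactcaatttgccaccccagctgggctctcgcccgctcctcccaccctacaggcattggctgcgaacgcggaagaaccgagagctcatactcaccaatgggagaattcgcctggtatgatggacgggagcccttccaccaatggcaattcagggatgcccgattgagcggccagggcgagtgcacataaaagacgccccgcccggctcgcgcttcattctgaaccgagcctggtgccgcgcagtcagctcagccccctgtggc
Id4: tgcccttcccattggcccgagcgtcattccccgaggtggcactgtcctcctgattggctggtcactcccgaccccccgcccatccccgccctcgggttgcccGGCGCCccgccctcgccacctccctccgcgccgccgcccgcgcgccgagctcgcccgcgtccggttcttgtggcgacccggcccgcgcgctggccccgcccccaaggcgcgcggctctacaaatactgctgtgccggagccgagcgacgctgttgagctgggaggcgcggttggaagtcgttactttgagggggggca
Smad6: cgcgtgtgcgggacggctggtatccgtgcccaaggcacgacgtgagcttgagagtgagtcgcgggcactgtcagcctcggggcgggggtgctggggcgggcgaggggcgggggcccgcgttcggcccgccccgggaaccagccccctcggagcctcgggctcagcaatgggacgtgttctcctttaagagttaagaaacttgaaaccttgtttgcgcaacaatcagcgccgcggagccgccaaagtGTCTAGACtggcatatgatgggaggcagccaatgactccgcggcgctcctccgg
Both motifs read the same on either strand and do not overlap each other in these windows. GGCGCC, a GC-rich Smad motif, was present in 11 of 27 matched genes of the set (40.7%) and in 13.4% of all 27025 genes with a window. The windows of the set had a median GC content of 67%, against 52.7% for all windows, and the part of GC content in that count was not tested. GTCTAGAC occurred in 1 of the 27 matched genes (3.7%) and in 0.248% of all genes with a window (0.213% of all 32851 windows). The Gli motif GACCACCCA, searched on both strands, occurred in none of the matched genes of the set. Its share was 0.289% of all genes with a window and 0.253% of all windows. Id2 and Id4 both held GGCGCC, and their log2 fold changes were 0.07 and -0.34. Neither change passed adjustment, and that of Id2 changed sign in 2 alternative settings. Whether the motif bears on the level of either gene was not tested.

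The BMP antagonists had negative log2 fold changes in the main fit, but that of Nog was only -0.03 (95% interval -0.59 to 0.53). Nog changed sign in 3 alternative settings. Grem1, the gremlin antagonist of crypt-base muscle and fibroblasts, measured 8.89, 8.78 and 8.36 FPKM in the controls and 6.47, 8.95 and 5 FPKM in the mutants. Controls were close together, and mutant 2 was the highest of the 6. The log2 fold change was -0.38 (95% interval -0.85 to 0.08, adjusted p = 0.786 in limma). Without mutant 2 it was -0.6 with an unadjusted p of 0.00455 and an adjusted p of 0.657, and without mutant 3 it was -0.19 (unadjusted p = 0.268). Noggin (Nog) and chordin (Chrd), which bind BMP ligands directly, were below 1 FPKM in every library, on 12 to 34 and 16 to 45 reads. Chrd overlaps the locus of Thpo, and its level is uncertain.

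**Figure D3:**
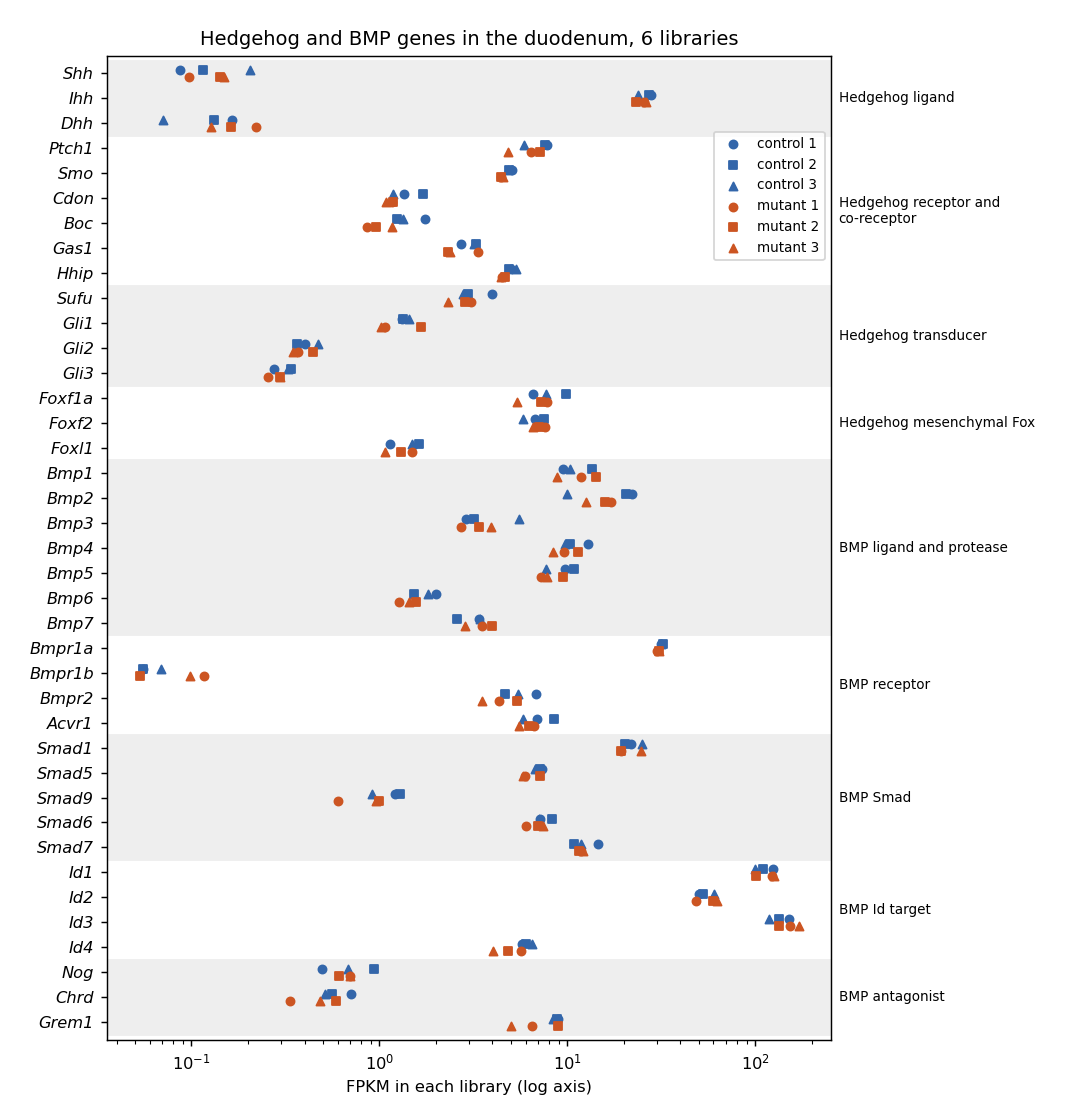
FPKM of each of the 39 genes in each library on a log axis, controls in blue and mutants in orange, with a symbol for each replicate number. Levels span from about 0.0529 FPKM (Bmpr1b) to 170 FPKM (Id3), and within a gene the libraries of both groups mostly intermix.

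Other genes of the 2 pathways were taken from lists. Of 24 tested Hedgehog pathway genes outside the set, 2 had an unadjusted p under 0.05, both lower in mutants (beside 4.32% of all rows), and 19 had a negative log2 fold change (beside 61.3%). Scube3, a secreted relative of the factor that helps release Hedgehog ligands, averaged 0.252 ± 0.0483 FPKM in the control and 0.107 ± 0.00892 FPKM in the mutant libraries (SD, n = 3 each; log2 -0.76, adjusted p = 0.786 in limma). Cul3, a ubiquitin ligase scaffold that acts on Gli proteins and many others, had 57.3 ± 2.53 and 50.4 ± 1.99 FPKM (log2 -0.18). Of 33 tested BMP pathway genes outside the set, 26 had a negative log2 fold change, and the median over the 33 was -0.13, beside -0.05 for all rows. Among these genes none was called after adjustment.

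The Id genes led the levels and 1 gene led most families. The sum of the 4 Id genes was 285 to 332 FPKM in controls and 300.5 to 362 FPKM in mutants, above all other groups. Within the Gli family Gli1 held 61.5% to 69.2% of the summed FPKM, and within the antagonists Grem1 held 80.9% to 88.2%. Bmp2 held 26% to 41.9% of the 6 BMP ligands in single libraries. Of the 39 genes, 10 averaged at least 10 FPKM, 21 lay from 1 to 10 FPKM and 8 were below 1 FPKM.

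**Figure D4:**
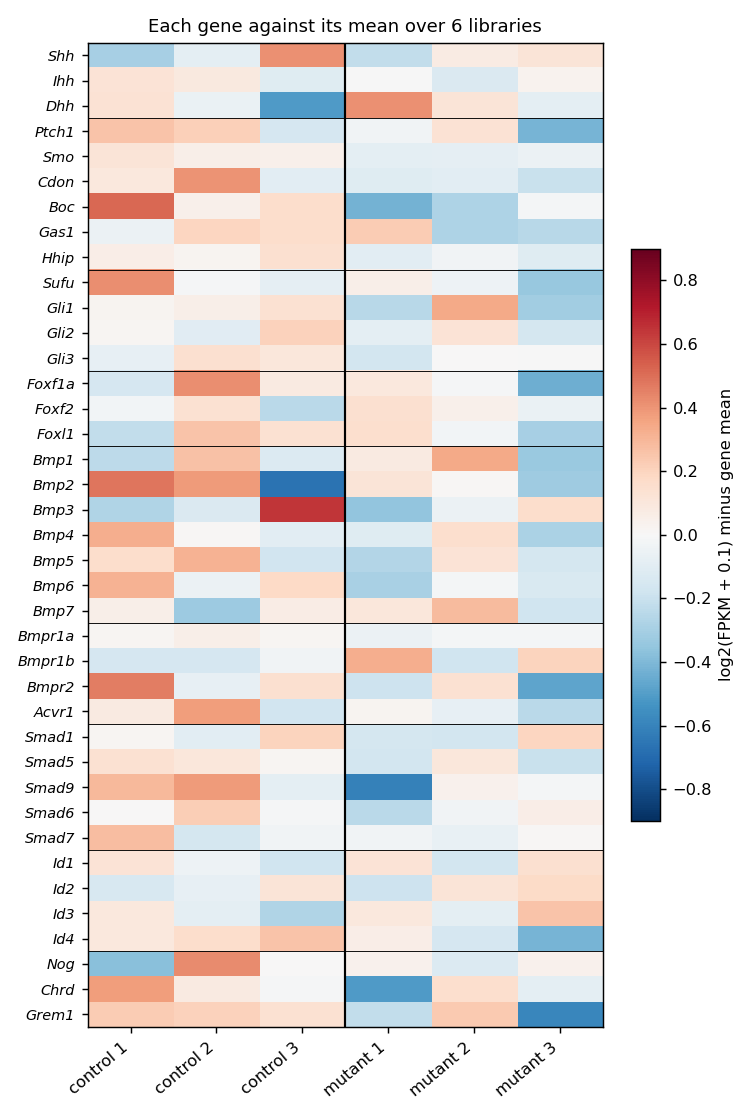
Level of each gene in each library as log2(FPKM + 0.1) minus the gene's mean over the 6 libraries, red above and blue below, with a line between controls and mutants. Bmp2 and Bmp3 in control 3 and Grem1 in mutant 3 stand out, while Smo, Hhip and Bmpr1a show small negative values in all 3 mutants.

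Most levels varied more than counting alone would give. Spread over the 6 libraries exceeded the counting error in 33 of the 39 genes and was more than 2 times it in 22. A total of 25 genes had at least 100 implied reads in every library. The exceptions with spread at or below counting error were the lowly expressed Shh, Dhh, Gli2, Gli3, Bmpr1b and Nog. Bmp2 was at the other end, with a spread of 28.2% beside a counting error of 3.82%.

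**Figure D5:**
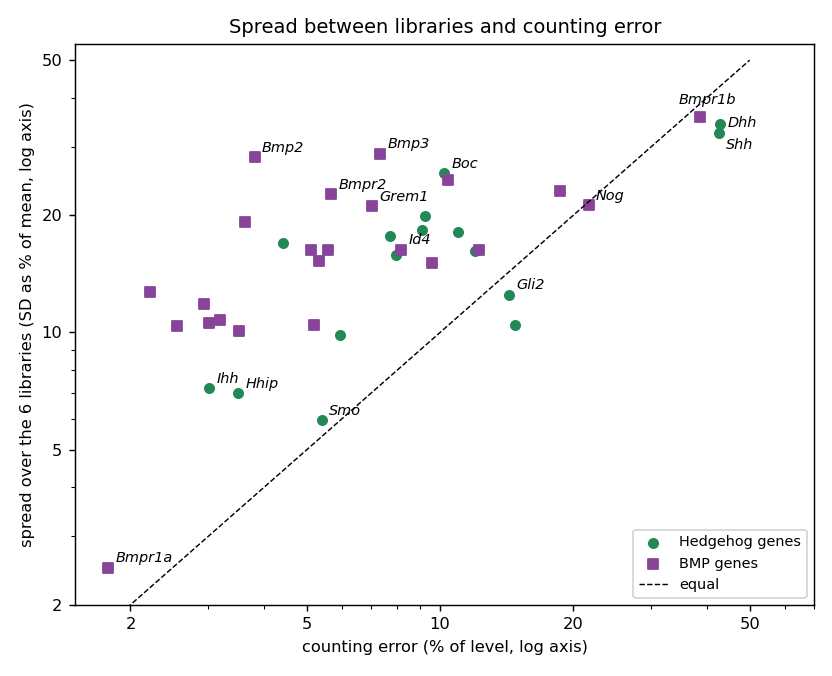
Spread over the 6 libraries (SD as percent of the mean) against the counting error implied by the FPKM intervals, on log axes, 1 point per gene; the dashed line marks equality. Bmpr1a and Smo lie low and near the line, and Bmp2 lies farthest above it.

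Of the 39 genes, 4 had several RefSeq transcripts in the deposited tables. For Sufu, 2 transcripts of nearly equal length (2359 and 2356 bases) shared the reads unevenly: the longer one took nearly all in control 2 (2.95 FPKM) and nearly none in control 3. Estimates split between transcripts this alike are uncertain, so the values above are gene totals. Bmp1 had 77.2% to 88.9% of its FPKM in its protein-coding transcript and the rest in a non-coding one, in both groups. For Acvr1, 81.9% to 95% lay in 1 of 3 transcripts, and for Smad5 51.9% to 100% did.

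The authors' deposited table, a DESeq comparison, gave an adjusted p of 1 for each of the 39 genes. Boc had the smallest unadjusted p in that table (0.0887, log2 -0.43). Of the 39, that table gave 31 a negative log2 fold change, and 7 of 18541 rows with a p-value passed an adjusted p of 0.05. The median log2 fold change there was -0.12 for the 39 genes and -0.0024 over all rows with a finite value.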

How the data were processed

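Total RNA from mouse duodenum was sequenced as 3 control and 3 mutant libraries after TruSeq library preparation, per the labels' protocols. The tools were CASAVA 1.8.2, TopHat, Cufflinks and DESeq, and the build mm9, per the submitters' processing notes. Further versions were not given in the sources used here. The authors deposited FPKM with confidence bounds per gene and RefSeq transcript (and transcript coverage, a signal not used here). A second table from the authors holds DESeq results: mean normalized counts as a signal, fold change as a ratio, log2 fold change and p-values. Groups came from sample titles.

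Main test: limma 3.58.1 (R 4.3.3) with trend on log2(FPKM + 0.1), for rows with mean FPKM of at least 0.1, without block or covariate, Benjamini-Hochberg over all rows, threshold 0.05. Implied reads come from the upper bound, taken as 2 standard errors above the value: 87.8% to 88.2% of single-transcript values under 500 reads fell within 0.05 of a whole number. They cover counting error only. File starts were 0-based and were converted to 1-based.

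Same-numbered libraries deviated together (r = 0.106, 0.207 and 0.389 across genes for number 1, 2 and 3). Each r was over the limit of 0.1 set for pairing, so the replicate block and the pairwise comparisons treat the numbers as pairs. Deviations from a group mean cancel within the group, so a shared deviation of number 3 also raises r among numbers 1 and 2. That rise can fall on matched and unmatched libraries, so these r do not establish pairing of numbers 1 and 2. Control 2 and mutant 1, which are unmatched, had an r of 0.061. The titles do not say that the numbers mark a litter or batch. The main fit had no block, so its p-values and intervals ignore any pairing by number. With the block the unadjusted p in limma went from 0.0934 to 0.0502 for Grem1 and from 0.264 to 0.064 for Ptch1. It rose for others, such as Smo (0.13 to 0.182) and Boc (0.0393 to 0.0604). Control 1 correlated slightly more with mutant 2 (r = 0.127) than with mutant 1, so the pairing of number 1 is weak. Members and lists were chosen with earlier results of these data known. The naming rule gave per-library values for genes with an unadjusted p under 0.05 or separate groups and for Shh, Ihh, Bmp2, Ptch1, Gli1, Hhip, Foxf1a, Foxl1, Bmp4, Bmp5, Id1 to Id3 and Grem1, and ranges for the rest. Other pathway lists gave up to 3 genes each way with the smallest p under 0.05, and marker lists up to 2. Bmp3 was added after its values were seen. Single genes of the other BMP list are not reported here.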

Additional observations from a re-analysis of the deposited data

How the results depend on the processing

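None of the 38 genes passed an adjusted p of 0.05 in any of the 17 alternatives; the smallest adjusted p was 0.606. Members at an unadjusted p under 0.05 numbered 1 with a filter of 1 FPKM, trimmed mean scaling, limma without trend or the pancreatic covariate. They numbered 0 with quantile normalization or the replicate block, and 0 to 3 with 1 library left out. With the pancreatic covariate the 1 was Bmp3, and limma gave an unadjusted p of 0.137 for Boc and 0.0794 for Id4. Without control 3 it was Bmp2, and without mutant 2 the 3 were Bmpr2, Grem1 and Smad5. Rows lower at this p made up 4.57% of all rows with the filter of 1 FPKM and 2.94% with trimmed mean scaling. They made up 4.96% in limma without trend and 3.1% with the pancreatic covariate. The share was 2.72% with quantile normalization, 5.09% with the replicate block and 2.47 to 5.64% with 1 library left out. Members with every mutant below every control numbered 3 with trimmed mean scaling and 1 with quantile normalization (beside 6.98% and 6.52% of all rows). They numbered 7 to 13 with 1 library left out (18.4 to 34.2%, beside 13.4 to 19.8% of all rows). In the 4 male libraries they numbered 15, where 24.7% of all rows did so. The alternative with 4 male libraries was chosen after seeing the data.

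Over all genes, adjusted calls numbered 2 under the replicate block, 1 under the sex covariate or in the male libraries, and 0 to 3 with 1 library left out. Rows lower at an unadjusted p under 0.05 numbered 431 with quantile normalization, 370 in male libraries and 391 to 895 with 1 library left out. Rows higher numbered 436 with trimmed mean scaling, 360 with quantile normalization, 445 with the replicate block, 389 with the pancreatic covariate and 187 to 361 with 1 library left out.

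The median log2 fold change with quantile normalization was -0.0816 for all members, -0.0678 for Hedgehog and -0.0875 for BMP genes, which stood at -0.0947 with the pancreatic covariate too. With 1 library left out these medians ran from -0.17 to -0.10, -0.17 to -0.09 and -0.20 to -0.0887.

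Single genes near 0 changed sign. With quantile normalization Shh had 0.0738, Gli2 0.0389 and Nog 0.0911, and Shh had 0.0025 with trimmed mean scaling. With the pancreatic covariate Ihh had 0.008, Bmp2 0.33, Bmp4 0.0119, Smad7 0.0384 and Id2 -0.0495. In male libraries Shh had 0.12, Gli1 0.0077, Gli2 0.0568, Foxl1 0.0437 and Id1 -0.0626. With 1 library left out the ranges were -0.17 to 0.19 for Shh, -0.0097 to 0.18 for Foxf2, -0.26 to 0.003 for Foxl1, -0.10 to 0.24 for Bmp1, -0.49 to 0.0794 for Bmp2, -0.34 to 0.12 for Bmp3, -0.15 to 0.0644 for Smad7, -0.006 to 0.17 for Id1, -0.0006 to 0.18 for Id2 and -0.23 to 0.17 for Nog. Without changing sign, ranges were -0.14 to -0.02 for Ihh, 0.11 to 0.43 for Dhh, -0.21 to -0.06 for Smad6 and 0.09 (without control 3 or mutant 3) to 0.27 for Id3. The cause was not tested. Depth limits Shh, Dhh and Bmpr1b, each under 15 reads in every library.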
